A study of Mus musculus with 9 samples.

Results

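Potassium channel genes were described in the developing and the mature mouse pituitary. The members are the protein-coding genes of the GENCODE M21 annotation (Ensembl release 96) whose symbols begin with Kcn, apart from a single gene that the rule leaves out, and there were 93 of them among 21951 protein-coding genes and 55450 genes in all. By role they comprise 39 pore subunits of voltage-gated channels with their silent modifiers (*Kcna* to *Kcnd*, *Kcnf* to *Kcnh*, *Kcnq*, *Kcns* and *Kcnv*), 13 auxiliary subunits and regulators that form no pore (*Kcnab*, *Kcne*, *Kcnip* and *Kcnrg*), 12 genes of calcium- and sodium-activated channels and their beta subunits (*Kcnma*, *Kcnmb*, *Kcnn*, *Kcnt* and *Kcnu*), 15 inward rectifiers (*Kcnj*) and 14 two-pore-domain channels (*Kcnk*).

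The libraries were made from Rathke's pouch at e13.5, taken from 7 embryos that all carried the Sox2Egfp/+ reporter allele, and from the pituitaries of 2 adults at postnatal week 8, dissected free of the posterior lobe and labelled as anterior pituitary. Both stages were of the mixed strain 129Sv/c57BL6J. Each library came from 1 animal, and the study's methods give 2 male and 5 female embryos and an adult of each sex, without saying which library is which. Leaving out an adult therefore also leaves out a sex among the adults. The comparison asks how expression differs between the pouch, in which most cells are still progenitors, and the mature gland with its hormone-producing cells. Whether the adults carried the reporter allele was not stated, and its part in the results was not tested.

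Potassium channels let potassium ions leave or enter the cell along their electrochemical gradient and so set the resting potential and shape the firing of excitable cells. Hormone-producing pituitary cells fire action potentials, calcium enters during them, and hormone is released. In these cells, voltage-gated and calcium-activated channels shape the spikes and bursts, leak and ether-a-go-go related (ERG) channels hold the resting potential, and G-protein-gated inward rectifiers couple dopamine and somatostatin receptors to the silencing of firing. In bulk tissue, fewer cells of a type and less RNA per cell cannot be told apart.

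The pore-forming members share a sequence that the selection rule did not use. The potassium channel signature, which lines the selectivity filter of the pore, was searched in the reading frame of the longest complete coding sequence of each gene in GENCODE M21, as a codon for threonine or serine, any codon, a glycine codon, a codon for tyrosine, phenylalanine or leucine, and a glycine codon. It was found in all 39 voltage-gated pore subunits, in all 15 inward rectifiers, in all 14 two-pore-domain genes (at 2 or more places in each) and in 8 of the 12 calcium- and sodium-activated genes. The other 4 of the latter were the *Kcnmb* beta subunits, and none of the 13 auxiliary genes held it. Of 21576 protein-coding genes with a complete coding sequence, 5.45% held a match, so that a match alone does not mark a channel. The sequences below, all in coding exons, are those of members on which the results turn, and the capitals mark the glycine, middle and glycine codons that form the filter.

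*Kcna2*, chr3:107105218-107105244, plus strand: atgacaactgtaGGCTATGGAgacatg
*Kcnc4*, chr3:107447793-107447819, minus strand: atgacaacgcttGGCTATGGGgacatg
*Kcnh2*, chr5:24325549-24325575, minus strand: ctcaccagcgtgGGCTTTGGCaatgtc
*Kcnma1*, chr14:23528407-23528433, minus strand: atgtctacagtgGGTTATGGGgacgtt
*Kcnj3*, chr2:55437621-55437647, plus strand: gaggccaccatcGGCTATGGCtaccgc
*Kcnj8*, chr6:142566442-142566468, minus strand: caagtgaccattGGGTTTGGAgggaga
*Kcnj13*, chr1:87389015-87389041, minus strand: caacttacaattGGTTATGGTaccatg
*Kcnk1*, chr8:126025323-126025349, plus strand: ctgagcaccatcGGCCTGGGGgactat
*Kcnk2*, chr1:189256575-189256601, minus strand: ctgacgaccattGGATTTGGAgactac
*Kcnk18*, chr19:59235421-59235447, plus strand: ctgaccaccatcGGGTTTGGGgacatc

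Coordinates are those of GRCm38, and each sequence is written 5′ to 3′ on the strand of the gene. For the two-pore-domain genes the match nearer the end of the coding sequence is shown. The middle codon separates subfamilies: it was a tyrosine codon in 31 of the voltage-gated pore subunits and a phenylalanine codon in all 8 *Kcnh* genes. *Kcna6* and *Kcnh2* each held a second match, with a leucine codon; for *Kcnh2* the match with the phenylalanine codon, nearer the end, is shown. Among the inward rectifiers, *Kcnj8* and *Kcnj11*, which form the pores of ATP-sensitive channels, had a phenylalanine codon and the other 13 a tyrosine codon. A leucine codon in a two-pore-domain gene was found only in *Kcnk1*, *Kcnk6* and *Kcnk7*.

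Depth differed between the libraries. The 7 embryo libraries held 16738863 to 28537311 read pairs counted on genes (median 24687556) and the adult libraries 36421545 and 31191117. A floor of 3 counts corresponded to 0.0962 to 0.220 CPM (counts-per-million values, scaled by the TMM method of edgeR) in the embryos and to 0.0727 and 0.0843 CPM in the adults, a limit that covers counting error only. Some embryo libraries stood apart. Of all read pairs, 59.7% and 62.8% fell on genes in embryos 1 and 4, while the other embryos had 73.9% to 80.0% and the adults 84.0% and 83.7%. In the same 2 embryos the summed level of 6 erythroid genes, led by the embryonic globin *Hbb-y*, was 167300 and 209400 CPM, against 6011 to 18630 CPM in the other embryos and 745 and 1896 CPM in the adults. Embryo 2 had the highest embryo sum of the neuronal, hypothalamic, endothelial, pericyte and macrophage marker lists.

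More potassium channel genes were higher in the adult than in the embryo. Of the 93 members, 80 reached an average of 5 counts per library and were tested with edgeR. At an adjusted p below 0.05 and a fold change above 4, 37 (46.2%) were called higher in the adult and 8 (10.0%) higher in the embryo. Among all 19371 genes tested, 14.6% were called higher in the adult, 11.3% higher in the embryo and 25.8% in either direction. The median log2 fold change, embryo over adult, was −1.58 over the tested members and −0.04 over all tested genes. Members with no count in a group can be set at a bound, with a floor of 3 counts over that group. This could not change the median, as each of them stayed on its side of it. All embryos lay on 1 side of both adults in 55 of the 80 tested members, and in 59.1% of all tested genes. Leaving out each library in turn, only *Kcne1l* and *Kcnj13* were always called higher in the embryo. A member can pass the filter through its high group alone: of the 37 called higher in the adult, 17 were above 3 counts in every embryo, 17 in some embryos and 3 in none. Among the 39 members with at least 10 counts in every library, 13 (33.3%) were called higher in the adult and 3 (7.69%) higher in the embryo, against 10.3% and 9.25% of the 13491 genes that passed the same filter.

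**Figure D1:**
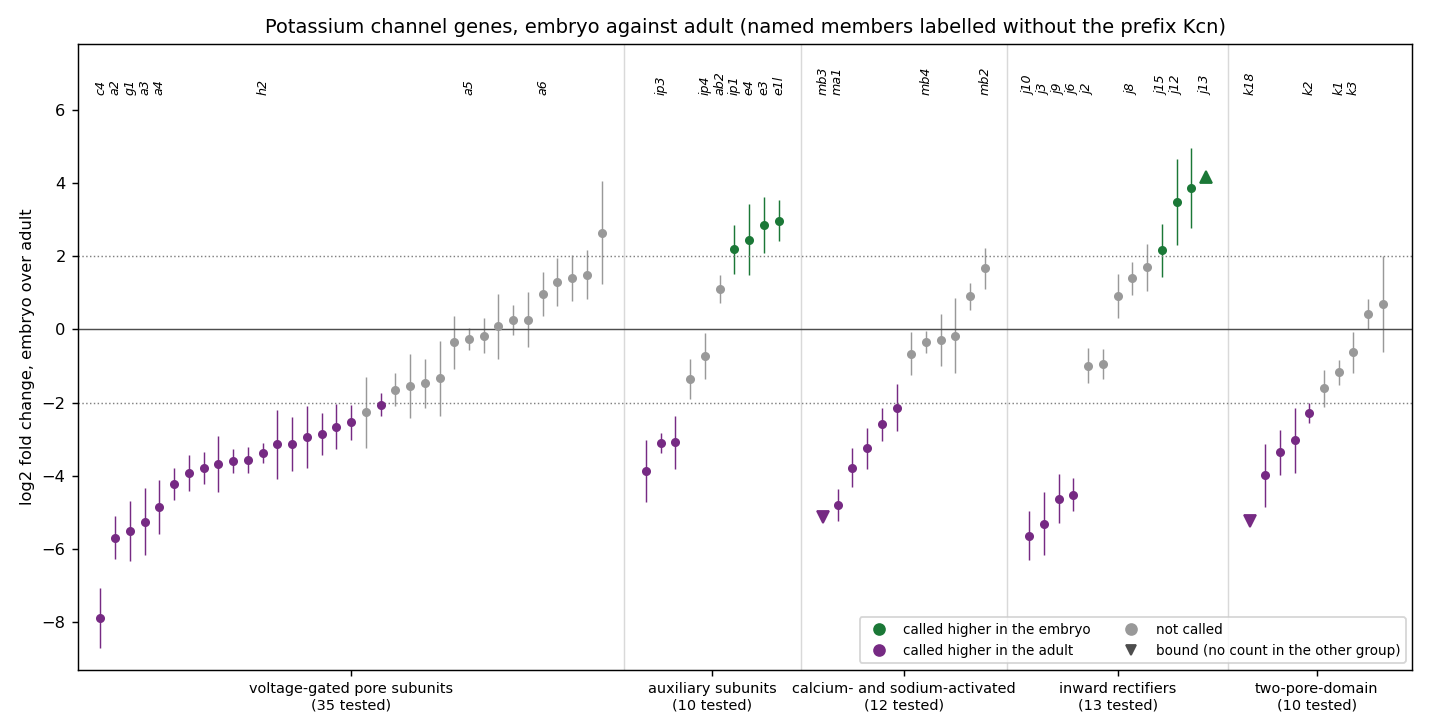
Log2 fold change, embryo over adult, of the 80 tested potassium channel genes, ordered by size within each class, with standard errors as bars and the symbols, without their prefix, of the members named by rule or drawn at a bound. Dotted lines mark a fold change of 4, and triangles stand at the bound of *Kcnj13*, *Kcnmb3* and *Kcnk18*, which had no count in 1 of the groups; the voltage-gated pore subunits range from −7.89 (*Kcnc4*) to 2.64 (*Kcnv1*), with 19 called higher in the adult and none higher in the embryo.

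Long genes were higher in the adult libraries as a whole, and many members are long. The median length of annotated exons was 4587 bases in the tested members and 3710 in all tested genes. In the tertile of all tested genes with the longest exons (5155 bases or more), 20.9% were called higher in the adult, against 9.93% in the shortest tertile (2604 bases or fewer). Members were called higher in the adult in 22 of 30 cases in the long tertile, 12 of 41 in the middle and 3 of 9 in the short. Across all tested genes, which are not independent replicates, the Spearman correlation of the fold change with exon length was −0.355, and across the 80 members it was −0.369. With a per-library correction for length and GC content, these were 0.0629 and −0.221, the share of long genes called higher in the adult was 9.48%, and 15 of the 30 long members were still called. With that correction 30 members were called higher in the adult, all of them among the 37, and 8 higher in the embryo, of which 5 were among the original 8. These were 37.5% and 10.0% of tested members, against 12.8% and 9.11% of all tested genes, so that the embryo share was near that of all genes. The median of the members was then −1.47, and that of all tested genes 0.04.

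**Figure D2:**
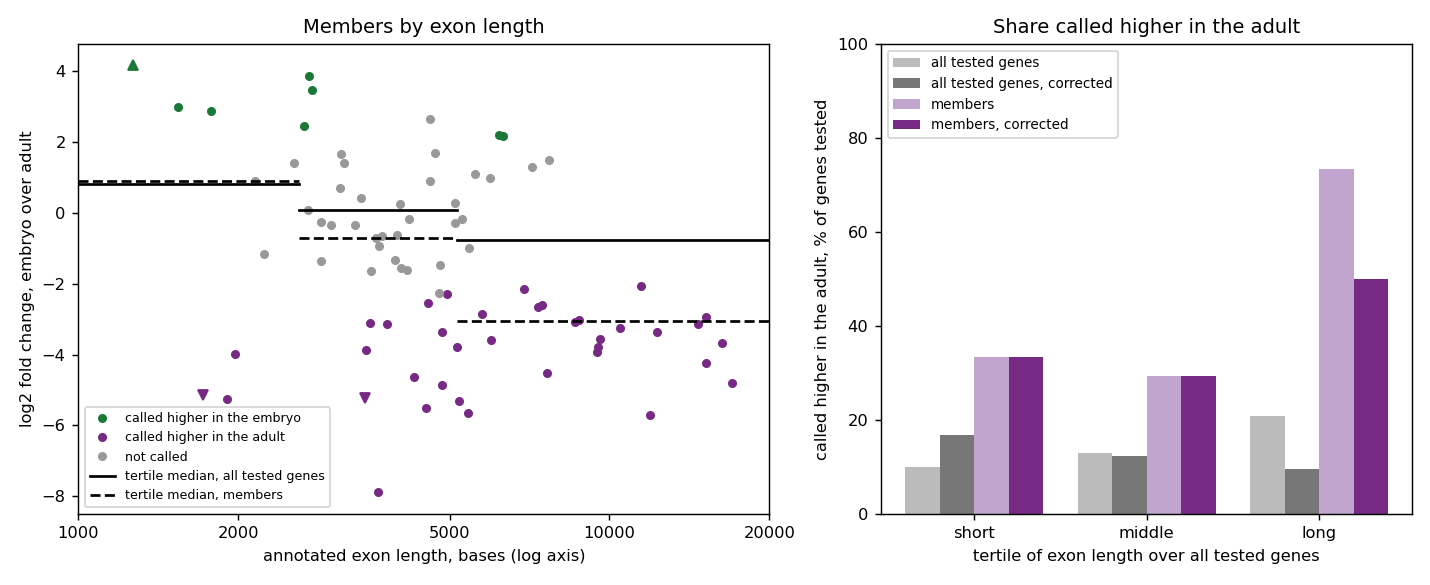
Left, log2 fold change of the 80 tested members against the length of their annotated exons (log axis), with the median of each length tertile for all tested genes (solid) and members (dashed). Right, the share called higher in the adult in each tertile, before and after correction for length and GC content: in the long tertile it was 73.3% and 50.0% of members, and 20.9% and 9.48% of all tested genes.

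Of the 35 voltage-gated pore subunits tested, 19 were called higher in the adult and none higher in the embryo, with a median log2 fold change of −2.54. After correction for length and GC content 16 were called higher in the adult and 2 (*Kcnc2* and *Kcnq5*) higher in the embryo, with a median of −1.84. By subfamily, the adult calls included 3 of 6 tested *Kcna* genes, 2 of 3 *Kcnd*, 2 of 3 *Kcng* and 5 of 8 *Kcnh*. None of the tested *Kcnf* (1), *Kcns* (2) and *Kcnv* (2) genes was called by edgeR; these had no adjusted p below 0.05. Without adult 2, *Kcng4*, *Kcnh7* and *Kcnq3* were no longer called.

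*Kcnc4*, a fast-inactivating pore subunit (chromosome 3, 107438303 to 107459552), was near the floor in the embryo, with a lowest, median and highest level of 0, 0 and 0.148 CPM and no embryo above 3 counts, and had 10.7 and 9.58 CPM in the adults (log2 fold change −7.89, SE 0.82, adjusted p = 5.5e-06). Every embryo lay below both adults. *Kcna2*, a delayed rectifier subunit of axons and endocrine cells, had 0, 0.372 and 0.445 CPM in the embryos and 17.3 and 16.1 CPM in the adults (−5.69, SE 0.58, adjusted p = 4.8e-06). *Kcna3* had 0, 0.0641 and 0.247 CPM in the embryos and 3.85 and 3.60 CPM in the adults (−5.25, SE 0.92, adjusted p = 0.00036), and *Kcna4*, which carries A-type current, had 0, 0.148 and 0.652 CPM against 9.89 and 4.41 CPM (−4.85, SE 0.74, adjusted p = 0.00013). *Kcng1* encodes a silent subunit that forms channels only together with *Kcnb* subunits. Its levels were 0, 0.0705 and 0.495 CPM in the embryos and 7.00 and 8.37 CPM in the adults (−5.50, SE 0.82, adjusted p = 1.1e-04). In these 5 genes the groups did not overlap, and each was still called after correction for length and GC content.

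*Kcnh2*, the ERG channel that contributes to the resting potential of pituitary cells, was the most abundant voltage-gated member of the adult gland per kb. It had 6.74, 11.8 and 13.6 CPM in the embryos and 112 and 106 CPM in the adults (−3.37, SE 0.28, adjusted p = 8.8e-07), with every embryo below both adults. The following were chosen after their values were seen. *Kcnb2*, a delayed rectifier with exons of 15165 bases, had a fold change of −4.23, and −2.23 after the correction. The A-type subunits *Kcnd2* and *Kcnd3* had log2 fold changes of −3.79 and −3.57, and the fast delayed rectifier *Kcnc1* one of −3.93; these 3 were called with and without the correction.

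The pattern was not shared by all pore subunits. *Kcna5*, a delayed rectifier subunit and the most abundant voltage-gated gene of the embryo per kb, had 14.3, 23.5 and 31.9 CPM in the embryos and 22.1 and 35.2 CPM in the adults (−0.26, SE 0.31, adjusted p = 0.50), so that the groups overlapped. *Kcna6* had 1.27, 7.13 and 11.3 CPM in the embryos and 2.81 and 3.88 CPM in the adults (0.97, SE 0.61, adjusted p = 0.19), also with overlap. *Kcnq5*, chosen after its values were seen, had 0.946, 1.195 and 2.33 CPM in the embryos and 0.606 and 0.421 CPM in the adults. All 7 embryos lay above both adults (1.498, adjusted p = 0.076), and the gene was called higher in the embryo only after the correction (2.27, adjusted p = 0.01).

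Auxiliary genes were called in both directions: of 10 tested, 4 were higher in the embryo and 3 in the adult (median 0.19), and after the correction 2 and 2 (median 0.52). All 3 tested *Kcne* genes, whose small single-span products modify voltage-gated pores, were called higher in the embryo. *Kcne1l* had 4.10, 7.10 and 14.96 CPM in the embryos and 1.02 and 1.15 CPM in the adults (2.97, SE 0.56, adjusted p = 0.00062), and *Kcne3* had 1.54, 2.64 and 4.75 CPM against 0.678 and 0.141 CPM (2.86, SE 0.77, adjusted p = 0.0065). In both genes every embryo lay above both adults, and *Kcne3* was not called without adult 2 (2.14, adjusted p = 0.092). *Kcne4* overlapped between groups, with 0.220, 1.96 and 6.01 CPM in the embryos and 0.364 and 0.421 CPM in the adults (2.45, SE 0.97, adjusted p = 0.047), and its call was lost when embryo 2, 4, 6 or 7 or either adult was left out. *Kcne* transcripts are short (1543 to 3214 bases of exons), and after the correction *Kcne1l* (1.99) and *Kcne4* (2.03, adjusted p = 0.084) were no longer called, while *Kcne3* was (2.28). With the correction and without embryos 1 and 4, *Kcne1l* (2.25, adjusted p = 0.00032) and *Kcne4* (2.27, adjusted p = 0.022) were called.

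The *Kcnip* genes encode calcium-binding proteins that associate with *Kcnd* pores. *Kcnip1* had 2.42, 4.02 and 10.9 CPM in the embryos and 0.775 and 1.52 CPM in the adults (2.19, SE 0.68, adjusted p = 0.015), without overlap; the fold change was 1.90 without embryo 2, which held the highest value, and 1.77 without adult 1, and the gene was then not called. *Kcnip3*, whose product also acts as a calcium-dependent transcriptional repressor, moved the other way. It had 5.93, 9.62 and 13.8 CPM in the embryos and 67.2 and 101 CPM in the adults (−3.10, SE 0.27, adjusted p = 1.4e-06), again without overlap. *Kcnip2*, chosen after its values were seen, had 0, 0.513 and 2.63 CPM against 10.0 and 15.8 CPM (−3.87). *Kcnip4* was not called (−0.72, adjusted p = 0.35) and overlapped between the groups, with 0.473, 2.12 and 5.42 CPM in the embryos and 5.23 and 3.29 CPM in the adults. Of the cytoplasmic beta subunits, *Kcnab1*, chosen after its values were seen, had 0, 1.95 and 3.24 CPM in the embryos and 13.3 and 14.3 CPM in the adults (−3.09, SE 0.72, adjusted p = 0.0029), without overlap, and was not called after the correction (−1.83, adjusted p = 0.063). *Kcnab3* overlapped between the groups and was not called (−1.35, adjusted p = 0.054), except with the correction and without embryos 1 and 4. *Kcnab2* had 10.1, 16.0 and 25.8 CPM in the embryos and 7.24 and 7.78 CPM in the adults; all embryos were above both adults, but the difference (1.10, SE 0.39, adjusted p = 0.028) was under the threshold on fold change. Another gene annotated on the same strand shares 2.24% of its exon bases, from which reads are not assigned to either.

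Among the calcium- and sodium-activated genes, 6 of 12 were called higher in the adult and none higher in the embryo (median −1.40). After the correction the median was −0.63, with 4 called higher in the adult and 1 higher in the embryo. The large-conductance calcium-activated (BK) channel pairs a pore subunit, *Kcnma1*, with beta subunits that alter its gating. *Kcnma1* had 0.5683, 1.90 and 3.75 CPM in the embryos and 55.6 and 53.0 CPM in the adults (−4.79, SE 0.44, adjusted p = 2e-06), without overlap. It has the longest exons of all members (16976 bases), and its fold change was −3.004 after the correction. *Kcnmb2*, a beta subunit that inactivates the pore (chromosome 3, 31902507 to 32200180), had 16.8, 63.3 and 134 CPM in the embryos and 17.3 and 24.6 CPM in the adults. The highest value was that of embryo 7 and the lowest, which alone fell below the adults, that of embryo 2. Its fold change of 1.66 (SE 0.56, adjusted p = 0.024) was under the threshold, and after the correction it was 2.04 (adjusted p = 0.0048) and the gene was called higher in the embryo. *Kcnmb4*, the beta subunit typical of neurons, had 15.6, 23.5 and 31.8 CPM in the embryos and 23.7 and 37.1 CPM in the adults (−0.35, SE 0.30, adjusted p = 0.34), with overlap. *Kcnmb1* also overlapped (−0.17, adjusted p = 0.9). *Kcnmb3*, chosen after its values were seen, had no count in any embryo and 0.606 and 0.702 CPM in the adults. Its adult mean was 35.1-fold a floor of 3 counts over the 7 embryos. With either adult left out, *Kcnmb3* averaged fewer than 5 counts per library and was not tested.

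The small-conductance channel genes *Kcnn2* and *Kcnn3* and the sodium-activated *Kcnt1* and *Kcnt2*, chosen after their values were seen, made up the other adult calls of this class, with log2 fold changes of −2.59, −3.25, −3.78 and −2.14. After the correction *Kcnn3* (−1.94) and *Kcnt2* (−0.84) were not called, nor was *Kcnt2* without embryo 1 or adult 2 or *Kcnn2* with unstranded counts. *Kcnn1* and the intermediate-conductance gene *Kcnn4* overlapped between the groups (0.90 and −0.29, adjusted p = 0.06 and 0.75).

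**Figure D3:**
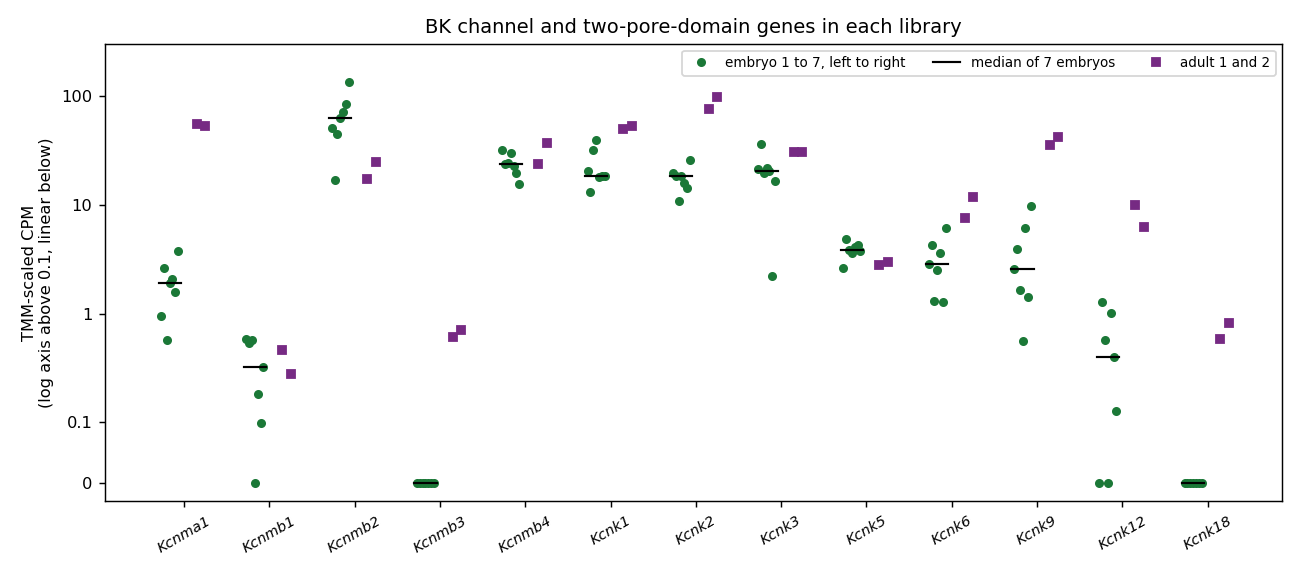
TMM-scaled CPM of BK channel genes and selected two-pore-domain genes in each library (log axis above 0.1, linear below). The embryos of *Kcnma1* lie between 0.5683 and 3.75 CPM and the adults at 55.6 and 53.0 CPM, whereas *Kcnmb2* reaches 134 CPM in embryo 7 and *Kcnmb4* overlaps between the groups.

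The inward rectifiers split evenly, with 4 of 13 tested genes called higher in the embryo and 4 higher in the adult (median 0.91). After the correction these were 3 and 4 (median 0.23). The adult genes were 3 of the 4 subunits of the G-protein-gated channels and *Kcnj10*. *Kcnj3* had 0, 0.635 and 2.31 CPM in the embryos and 29.0 and 42.0 CPM in the adults (−5.31, SE 0.85, adjusted p = 2e-04). *Kcnj6* had 0.220, 0.742 and 1.46 CPM against 16.5 and 19.1 CPM (−4.52, SE 0.45, adjusted p = 3.9e-06), and *Kcnj9* had 0, 0.321 and 0.811 CPM against 8.43 and 8.49 CPM (−4.63, SE 0.67, adjusted p = 8.5e-05). In all 3 every embryo lay below both adults. *Kcnj5*, the remaining G-protein-gated subunit, chosen after its values were seen, lay the other way round: it had 0.934, 1.60 and 1.78 CPM in the embryos and 0.485 and 0.421 CPM in the adults, all embryos above both adults, with a fold change under the threshold (1.70, SE 0.63, adjusted p = 0.037). Summed per kb of exons, the 4 subunits had a median of 0.665 CPM in the embryos and 9.78 and 12.6 CPM in the adults.

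Most of the listed receptors that open these channels in the pituitary were called higher in the adult as well. Of the 6 dopamine and somatostatin receptor genes (*Drd2* and *Sstr1* to *Sstr5*), 4 were called higher in the adult, none higher in the embryo (median −4.92), and their summed level was 0.659 to 5.64 CPM in the embryos and 260 and 285 CPM in the adults. *Drd2*, by which dopamine restrains prolactin release, was the most abundant, with 0, 0.192 and 0.693 CPM in the embryos and 177 and 209 CPM in the adults (−9.17, SE 0.48, adjusted p = 2e-08). *Sstr1*, *Sstr3* and *Sstr5* had log2 fold changes of −4.94, −5.47 and −4.89, and *Sstr2* (−1.96, adjusted p = 0.099) and *Sstr4* (−0.24, adjusted p = 0.82) were not called, though *Sstr2* was after the correction (−2.72).

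*Kcnj10*, which in brain and inner ear clears extracellular potassium and is typical of glia, had 0, 0.247 and 1.15 CPM in the embryos and 21.3 and 17.3 CPM in the adults (−5.64, SE 0.67, adjusted p = 1.6e-05), without overlap. Glial markers were listed too: 2 of 4 tested were called higher in the adult and none higher in the embryo, their sum was 23.0 to 52.9 CPM in the embryos and 64.2 and 91.8 CPM in the adults, and *Mbp* was the most abundant. Their part in the result was not tested.

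The inward rectifiers called higher in the embryo were low to moderate in level. *Kcnj13*, known from transporting epithelia (chromosome 1, 87386363 to 87394729), was chosen after its values were seen. It had 0.135, 0.674 and 1.34 CPM in the embryos and no count in either adult. Its embryo mean was 17.9-fold a floor of 3 counts over both adults, which is no limit for single embryos. The gene passed the count filter through the embryos alone, and leaving out an adult could not change its adult level. It was called without each library in turn, though not with unstranded counts or the replicate block (a fit that pairs libraries by number). *Kcnj14*, chosen in the same way, had 0.212, 0.893 and 1.34 CPM in the embryos and 4 counts in both adults together (3.86, SE 1.09, adjusted p = 0.0088); it was not called without adult 1. *Kcnj12*, a strong rectifier, had 0, 4.45 and 9.62 CPM in the embryos and 0.339 and 0.450 CPM in the adults (3.48, SE 1.18, adjusted p = 0.024). Only embryo 1, with no count, lay below the adults, and the gene was not called without adult 1 (adjusted p = 0.14), without adult 2 (adjusted p = 0.11) or after the correction (2.99, adjusted p = 0.051), but it was with the correction and without embryos 1 and 4 (3.29, adjusted p = 0.0011). *Kcnj15* had 1.28, 5.80 and 12.2 CPM in the embryos and 1.43 and 1.32 CPM in the adults (2.17, SE 0.73, adjusted p = 0.023), with embryo 2 below both adults. Leaving out embryo 7 (1.91) or either adult (adjusted p = 0.11 and 0.13) ended its call. Skeletal muscle markers, whose tissue uses strong inward rectifiers, had 3 of 5 tested genes called higher in the embryo and 1 in the adult, at sums of 2.20 to 7.42 CPM in the embryos and 2.35 and 0.927 CPM in the adults, led by *Myog*, with *Myod1* at no count in the adults. Their part in the result was not tested.

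The ATP-sensitive channels join a *Kcnj8* or *Kcnj11* pore to a sulfonylurea receptor, *Abcc9* or *Abcc8*. *Kcnj8*, found with *Abcc9* in pericytes and smooth muscle, had 16.3, 19.2 and 49.8 CPM in the embryos and 9.91 and 7.36 CPM in the adults. All embryos lay above both adults, 6 of them at 19.5 CPM or less and embryo 2 at 49.8 CPM, and the difference (1.39, SE 0.45, adjusted p = 0.019) was under the threshold on fold change. After the correction it was 0.79 (adjusted p = 0.1). The pericyte and smooth muscle list, led by *Acta2*, summed to 449 CPM in embryo 2, 206 to 271 CPM in the other embryos and 152 and 99.7 CPM in the adults, with 2 of 6 genes called higher in the embryo. The endothelial list, led by *Emcn*, summed to 541 CPM in embryo 2, 147.5 to 312 CPM in the other embryos and 132 and 82.6 CPM in the adults, with 1 of 6 called higher in the embryo; neither list had a gene called higher in the adult. Single markers differed in direction: the pericyte gene *Rgs5* was under the threshold on fold change, with both adults above every embryo (−0.98, adjusted p = 0.014), and the endothelial gene *Kdr* overlapped (−0.65, adjusted p = 0.31). The part of these cells in the result was not tested. *Abcc9* itself was not called (0.17, adjusted p = 0.81). For the other pair, *Abcc8* had 0, 0.635 and 2.57 CPM in the embryos and 6.74 and 7.42 CPM in the adults (−3.02, SE 0.82, adjusted p = 0.007), while *Kcnj11* had 2.50, 4.90 and 7.39 CPM against 8.84 and 9.67 CPM, with every embryo below both adults but no call (−0.94, adjusted p = 0.071). *Kcnj2* had 2.49, 4.02 and 12.3 CPM in the embryos and 9.11 and 11.2 CPM in the adults (−0.99, SE 0.48, adjusted p = 0.1); embryo 7 alone lay above the adults.

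**Figure D4:**
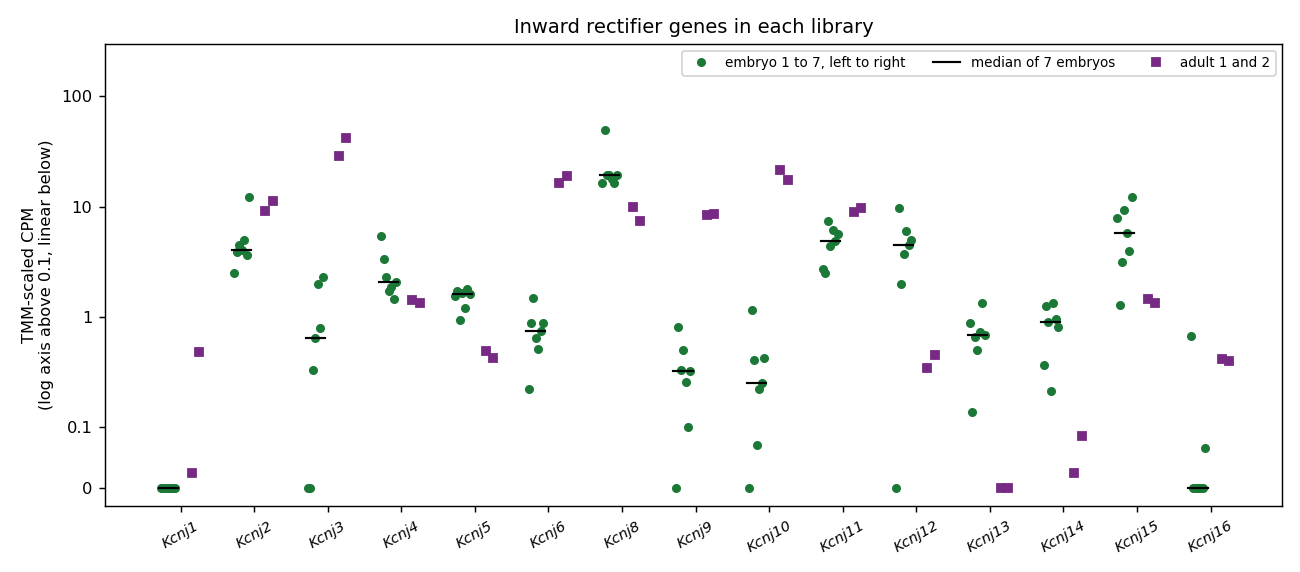
TMM-scaled CPM of the 15 inward rectifier genes in each library (log axis above 0.1, linear below). *Kcnj3*, *Kcnj6*, *Kcnj9*, *Kcnj10* and *Kcnj11* lie higher in both adults, at 8.43 to 42.0 CPM, than in any embryo, and *Kcnj4*, *Kcnj5*, *Kcnj8*, *Kcnj13* and *Kcnj14* lie higher in every embryo than in either adult.

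Two-pore-domain genes encode leak channels that set the resting potential. Of the 10 tested, 5 were called higher in the adult and none higher in the embryo (median −1.95), and after the correction 4 and none (median −1.91). *Kcnk2*, a leak channel gated by stretch and lipids, had 10.8, 18.5 and 25.5 CPM in the embryos and 75.3 and 97.4 CPM in the adults (−2.30, SE 0.27, adjusted p = 1.7e-05), without overlap. *Kcnk1*, which forms a weakly conducting pore, had 13.2, 18.5 and 39.2 CPM in the embryos and 49.4 and 53.4 CPM in the adults. All embryos lay below both adults, yet the fold change (−1.17, SE 0.34, adjusted p = 0.011) was under the threshold. It was −1.84 after the correction, still not called, and −2.04 and called with the correction and without embryos 1 and 4. The acid-sensitive leak channel *Kcnk3* overlapped, at 2.23, 20.4 and 35.8 CPM in the embryos and 30.2 and 30.3 CPM in the adults (−0.62, SE 0.55, adjusted p = 0.36), with its lowest value in embryo 6 and its highest in embryo 2.

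Other members of the class were chosen after their values were seen. *Kcnk9*, an acid-sensitive leak channel that is imprinted and expressed from the maternal allele in brain, had 0.564, 2.56 and 9.75 CPM in the embryos and 35.6 and 41.8 CPM in the adults (−3.36, SE 0.62, adjusted p = 0.00054), without overlap. It has long exons (12300 bases); the correction left it called (−2.21), but not when embryos 1 and 4 were left out as well. *Kcnk12*, whose product does not give current on its own in most cells, had a fold change of −3.99, and *Kcnk10* one of −3.03 that was not called after the correction (−1.98, adjusted p = 0.09) or without either adult. *Kcnk18* (chromosome 19, 59219214 to 59237374) had no count in any embryo and 0.582 and 0.815 CPM in the adults, at least 37.5-fold higher. With either adult left out, *Kcnk18* averaged fewer than 5 counts per library and was not tested.

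Most members were detected at either stage. Above 3 counts, 49 members were detected in all 7 embryos, 33 in some and 11 in none, and 81 were detected in both adults, 6 in 1 and 6 in neither. Single libraries held 57 to 78 members in the embryos, fewest in embryos 1 (57) and 4 (60), the shallowest libraries, and 85 and 83 in the adults, the deepest. *Kcna10*, *Kcnk4* and *Kcnk16* were above 3 counts in no library, so that their expression was not detectable at this depth. *Kcnk16* had no count at all, *Kcna10* had 2 and *Kcnk4* had 5 in the 9 libraries together; 13.2% of the exon bases of *Kcnk4* are shared with another gene on its strand. The remaining untested members, of low count, were *Kcna7*, *Kcne1*, *Kcne2*, *Kcng3*, *Kcnj1*, *Kcnj16*, *Kcnk7*, *Kcnk15*, *Kcnrg* and *Kcns2*. Of these, *Kcng3* had no count in the embryos and 26 in the adults. Its adult mean was 18.6-fold a floor of 3 counts over the 7 embryos. The 26 adult counts of *Kcne2* all came from adult 1.

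Summed over all members, the level per kb of exons was 94.8 to 133 CPM in the embryos (median 108) and 225 and 252 CPM in the adults. The makeup of this sum differed. Voltage-gated pore subunits made up 17.0% to 23.2% of the embryo sums, against 40.5% and 37.3% of the adult sums, and calcium- and sodium-activated genes 14.3% (embryo 2) to 38.7%, against 11.3% and 12.3%. Auxiliary genes (median 13.4% against 13.1% and 15.9%) and two-pore-domain genes (13.0% to 26.3% against 25.0% and 24.8%) overlapped between the stages, and inward rectifiers had 12.7% to 24.2% against 10.1% and 9.80%. As levels, the inward rectifiers summed to 12.7 to 27.6 CPM per kb in the embryos (median 14.35) and to 22.8 and 24.7 in the adults. Only embryo 2 (27.6) lay above the adults, and the other embryos, at 18.01 or less, lay below both. The calcium- and sodium-activated genes summed to 16.3 to 51.4 CPM per kb and overlapped (25.45 and 30.87). Most of their embryo level came from beta subunits, which form no pore: *Kcnmb2* and *Kcnmb4* had means of 21.2 and 7.18 CPM per kb. In the adult these had 6.68 and 9.15. Of the pore genes, *Kcnma1* had 0.114 in the embryo and 3.20 in the adult, while *Kcnn1* had 2.58 and 1.38.

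**Figure D5:**
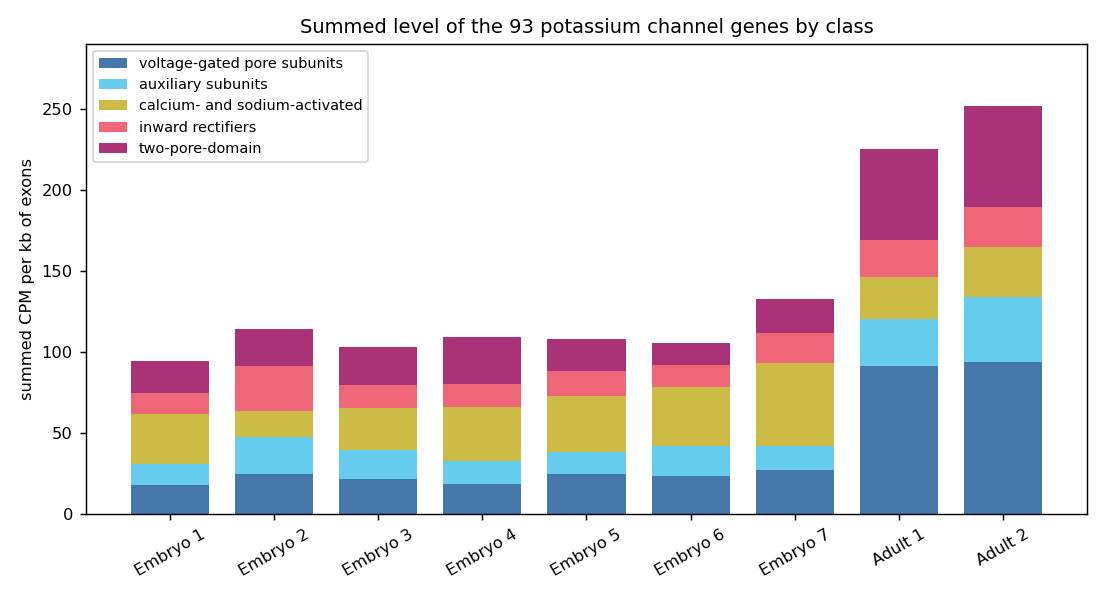
Summed level of the 93 members in each library, as CPM per kb of exons, stacked by class. Totals are 94.8 to 133 for the 7 embryos, 225 for adult 1 and 252 for adult 2, and the voltage-gated pore subunits take 18.15 to 27.25 of each embryo sum and 91.2 and 93.9 of the adult sums.

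Ranked by mean level per kb, the embryo was led by *Kcnmb2* (21.2 CPM per kb, 19.3% of the sum), followed by *Kcnk1* (10.2), *Kcnj8* (8.90), *Kcna5* (8.39), *Kcnmb4* (7.18) and *Kcne1l* (5.53). The ranges of all 6 over the embryos overlapped. In the adult, *Kcnip3* (23.7 CPM per kb), *Kcnk1* (23.0) and *Kcnh2* (22.5) lay within the spread of *Kcnip3* over both adults, and *Kcnk2* (17.5), *Kcna5* (10.0) and *Kcnmb4* (9.15) came next. With the longest transcript as the length the same 6 genes led each stage, but in another order: *Kcnmb4* had 14.7 CPM per kb in the embryo, next to *Kcnmb2*, and 18.7 in the adult.

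Genes that work with potassium channels were described from lists. Of 9 partner genes, 8 were tested and 3 were called higher in the adult, none higher in the embryo (median −1.63), and the summed level was 33.2 to 69.2 CPM in the embryos and 130 and 146 CPM in the adults, led by *Dpp6*, while *Lrrc26* had no count in the embryos. Besides *Abcc8* these were *Lrrc52*, a BK gamma subunit, at 0, 0 and 0.135 CPM in the embryos and 0.557 and 0.871 CPM in the adults (−4.39, SE 1.10, adjusted p = 0.0044), and *Dpp10*, a partner of *Kcnd* pores with exons of 15784 bases. *Dpp10* had 2.07, 4.31 and 11.4 CPM against 16.8 and 29.7 CPM (−2.11, SE 0.45, adjusted p = 0.0016), but −0.04 after the correction for length and GC content, and it was not called without embryo 1, 3 or 4 or adult 2. The hyperpolarisation-activated HCN channels, which carry an inward pacemaker current, had 2 of 4 genes called higher in the adult (median −1.75), with sums of 6.22 to 15.3 CPM in the embryos and 46.4 and 53.8 CPM in the adults. *Hcn2*, the most abundant, had 0.732, 1.06 and 1.54 CPM against 21.6 and 19.6 CPM (−4.25, SE 0.35, adjusted p = 8e-07), and *Hcn4* had 0, 2.90 and 4.15 CPM against 13.8 and 20.8 CPM (−2.67, SE 0.68, adjusted p = 0.0049; adjusted p = 0.061 without adult 2).

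Several lists of tissue markers differed between the stages. Of 11 hormone cell genes, 10 were called higher in the adult, none higher in the embryo (median −7.58), and they summed to 889 to 1939 CPM in the embryos and 152800 and 160400 CPM in the adults, with *Gh* the most abundant. Of 8 genes of Rathke's pouch and progenitors, 3 were called higher in the embryo and none in the adult (median 1.35). They summed to 538 to 1231 CPM in the embryos, lowest in embryo 2, and to 490 and 407 CPM in the adults, led by *Pitx1*. The progenitor gene *Sox2* lay the other way, at 26.5 to 44.8 CPM in the embryos and 64.0 and 56.8 CPM in the adults. Its difference was under the threshold on fold change (−0.70, adjusted p = 0.028), also after the correction (−1.38). The part of the Sox2Egfp/+ allele in this was not tested. Among markers of other tissues, the hypothalamic and posterior lobe list, led by *Rax*, had 4 of 5 tested genes called higher in the embryo, none in the adult. It summed to 175 CPM in embryo 2, 57.05 to 105 CPM in the other embryos and 30.4 and 37.5 CPM in the adults. Most of the adult sum came from the remaining tested gene, *Col25a1*, at 27.8 and 33.4 CPM. Both adults lay above every embryo for *Col25a1*, under the threshold on fold change (−1.16, adjusted p = 0.047), while *Rax* had 1.48 and 2.11 CPM in the adults. Of 7 tested neuronal genes, 2 were called higher in the adult, none higher in the embryo, and their sum, led by *Tubb3*, was 225 CPM in embryo 2, 42.4 to 127 CPM in the other embryos and 166 and 137 CPM in the adults. Mesenchymal genes, led by *Col3a1*, had 4 of 6 called higher in the embryo, none in the adult, with sums of 658 to 2333 CPM against 717 and 458 CPM. No macrophage gene of 6 was called by edgeR, and 1 had an adjusted p below 0.05; their sum, led by *C1qb*, was 326 CPM in embryo 2, 127 to 208 CPM in the other embryos and 103 and 156 CPM in the adults. Erythroid genes had 5 of 6 called higher in the embryo and none in the adult. With embryos 1 and 4 left out, 37 members were called higher in the adult, all of them among the original 37, and 8 higher in the embryo, of which 7 were among the original 8. These were 45.7% and 9.88% of tested members, against 16.2% and 11.5% of all tested genes. The part of any of these cell types in the results was not tested.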

How the data were processed

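RNA from the Rathke's pouch of 7 embryos and the pituitary of 2 adults was used. The authors trimmed the reads with Trimmomatic 0.39, aligned them to mm10 with STAR 2.7.5b and deposited raw counts of read pairs per gene (Ensembl release 96), with no normalisation. The strand-specific count that matches the directional kit was used, and read pairs aligned in several places are not in it. All 55450 identifiers were found in GENCODE M21.

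Counts were scaled by TMM and fitted with the quasi-likelihood test of edgeR 4.0.16 (R 4.3.3), with stage as the only term, over the 19371 genes that averaged 5 counts or more. Adjusted p-values are Benjamini-Hochberg values over these genes, and a gene was called at an adjusted p below 0.05 and a fold change above 4. As there are only 2 adults, variance is moderated across genes. Levels between genes are CPM per kb of the union of annotated exons. The correction for length and GC content used splines with 4 degrees of freedom per library, fitted on genes averaging 50 counts or more. Sequences came from the GENCODE M21 transcripts. Figures were drawn with matplotlib 3.10.9 in Python 3.11.15.

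The members and lists were chosen with earlier results of these data known. Named members were, in each direction, the 10 called with the largest fold change at a mean count of at least 20, the 6 most abundant per kb at each stage, the 2 most abundant not called in each class, those above 3 counts in no library, and called genes of the partner, HCN and receptor lists; other genes are said to be chosen after their values were seen. Alternatives were DESeq2 1.42.0, other scalings, filters, thresholds and counts, a replicate block, each library left out, embryos 1 and 4 left out and, chosen after seeing the data, that together with the length and GC correction.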

Additional observations from a re-analysis of the deposited data

Results flagged for a closer look

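Of 30 named members screened over the 7 embryos, 5 had 1 embryo far from the others, measured as the gap to the nearest embryo divided by the range of all 7; the level of this test is about 1 gene in 20 for normally distributed values, which CPM need not be. For *Kcnj8* this was embryo 2, at 49.8 CPM with the nearest embryo at 19.5 CPM (0.904 of the range). Embryo 2 was also highest for *Kcnj10*, at 1.15 CPM against 0.417 CPM (0.637), and for *Kcne4*, at 6.01 CPM against 2.62 CPM (0.585). *Kcnj2* was highest in embryo 7, at 12.3 CPM against 4.999 CPM (0.744). *Kcna2* was lowest in embryo 5, with no count against 0.284 CPM in the nearest embryo (0.638). Embryo 2 had the highest embryo sums of the neuronal, endothelial, pericyte and macrophage markers given above; their part in these values was not tested.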

How the results depend on the processing

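For the genes named by rule, 794 log2 fold changes under the alternatives kept their direction and their side of the threshold, 45 kept the direction but were no longer called, 11 became called and 3 changed sign. The 3 were the Kcna5 log2 fold change without adult 2 (0.11, against −0.57 without adult 1) and, with the length and GC correction without embryos 1 and 4, *Dpp10* (0.20) and *Kcnj2* (0.0847); none of these was called. Such tallies favour agreement, as many of these genes were named for large called changes in the main fit. The looser thresholds on fold change and the test for more than 4-fold use the main model, so they could not change a direction. The adult count of 37 members was the same with DESeq2, with its size factors, with library size alone and with edgeR's own filter. It was 20 in a test of whether the change exceeds 4-fold and 13 with at least 10 counts in every library, a filter that tests fewer genes. The embryo count of 8 was less stable: 5 with library size alone, 3 with at least 10 counts in every library, 2 with the replicate block and 1 in the test for more than 4-fold. With each library left out in turn it ran from 3 to 9, and the adult count from 30 to 38; with an adult left out, the lone adult is assumed to vary like the embryos. The shares of all tested genes moved too. Called higher in the embryo were 8.98% with library size alone, 9.25% with at least 10 counts in every library and 9.27% with the block. In the test for more than 4-fold, 3.16% were called higher in the embryo and 5.84% in the adult. With each embryo left out, these shares were 10.9% to 12.2% and 13.5% to 15.3%. Library size alone also shifted the median of all tested genes from −0.04 to −0.26.

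The median of the members was −0.78 with at least 10 counts in every library, −2.04 with the replicate block, −1.19 with the length and GC correction without embryos 1 and 4, and −1.82 to −1.22 with each library left out. Over all genes, the calls higher in the embryo and in the adult numbered 1248 and 1394 with at least 10 counts in every library, 4155 and 4805 at a fold change above 2, 4650 and 5298 with no threshold on it, and 613 and 1131 in the test for a change of more than 4-fold. With the length and GC correction without embryos 1 and 4, 12 members (14.8%) were called higher in the embryo and 31 (38.3%) in the adult. The shares of all tested genes were then 9.31% and 14.1%. The replicate numbers do not pair the animals: deviations of same-numbered libraries correlated at 0.03 and 0.0003. With the block, 30 members (37.5%) were called higher in the adult, all among the 37, against 12.6% of all tested genes.

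With 2 adults, a member of few counts rests on single libraries, and a count of 0 allows up to 0.220 CPM in the shallowest embryo library. Detection in all 7 embryos fell from 49 to 37 members, and in both adults from 81 to 75, with a floor of 10 counts.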

Other observations

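Antisense genes that carry a potassium channel symbol are not members, but the strand-specific counts give their levels. *Kcnd3os*, on the strand opposite *Kcnd3*, had 12 counts in the 7 embryos together and 35 in both adults (0.485 and 0.421 CPM), with every embryo below both adults (log2 fold change −2.58, SE 0.97, adjusted p = 0.038). *Kcnd3*, whose annotated span overlaps that of *Kcnd3os*, had 575 counts in the embryos and 3305 in the adults (−3.57). Read pairs counted on the opposite strand amounted to 4.58% to 5.45% of those used, depending on the library. The part of such reads in the level of *Kcnd3os* was not tested. *Kcnmb4os2*, named for *Kcnmb4*, had a lowest, median and highest level of 2.63, 3.50 and 5.80 CPM in the embryos and 3.17 and 4.97 CPM in the adults and overlapped between the stages (−0.14, adjusted p = 0.81), like *Kcnmb4* itself. *Kcnab3os* was low at both stages, at 0.198 to 0.777 CPM in the embryos and 0.436 and 0.393 CPM in the adults (−0.17, adjusted p = 0.88). *Kcnmb4os1* had 2 counts in all libraries together and was not tested.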
